A study of Mus musculus with 8 samples.

Results

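The aryl hydrocarbon receptor (AHR) pathway was followed through 6 genes on mouse expression arrays from Affymetrix. They were the receptor gene Ahr, its dimer partner Arnt, the repressor Ahrr, and the target genes Tiparp, Cyp1b1 and Nqo1. Probe sets were taken where the array annotation gave 1 of these symbols alone, which found all 6 genes among 18194 genes and 15 of their probe sets among 34958. Each gene is given by its brightest probe set on average across the 8 arrays, and the others served as a check. Values are log2 GCRMA values as deposited, so that a difference of 1 is a doubling.

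There were 4 groups of 2 arrays. For the Tfh group, C57BL/6 mice were immunized with KLH (keyhole limpet haemocyanin), and 7 days later CD4+CXCR5+ T cells were sorted from spleen by flow cytometry and restimulated with anti-CD3 for 4 h; the age of these mice is not given. The other groups were naive CD4 T cells from spleen and lymph nodes of 6 to 8 week old OT-II mice on a C57BL/6 background, which carry a transgenic T cell receptor. All 3 were cultured for 5 days in RPMI-1640 with OT-II peptide and antigen-presenting cells (APC), whose source is not given. Th17 cultures received IL-6, TGFb, anti-IL-4 and anti-IFNg, Th2 cultures received IL-4 and anti-IFNg, and Th1 cultures received IL-12 and anti-IL-4. Cell type, source and handling therefore changed together between Tfh and the rest and cannot be told apart. The labels do not say whether the 2 arrays of a group came from separate animals or cultures, so p-values measure the spread between these arrays, which may be technical.

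AHR is a ligand-activated transcription factor of the basic helix-loop-helix PAS family. It waits in the cytosol with chaperones, enters the nucleus once it binds a planar aromatic ligand such as a dioxin or a tryptophan derivative, and pairs there with ARNT to bind the xenobiotic response element. Its targets include enzymes that clear the ligand and proteins that switch the receptor off again. In CD4 T cells the receptor is best known from Th17 cells, where ligands raise production of IL-22, and from regulatory T cells.

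Cxcr5, by which the cells were sorted, stood at 11.25 and 11.20 in Tfh arrays, against 3.34 to 8.12 in the 6 cultured arrays. Il17a stood at 14.35 and 13.93 in Th17 arrays, Il4 at 15.20 and 15.57 in Th2 arrays, and Ifng at 15.39 and 15.07 in Th1 arrays, in each case above all other groups. Other genes of these lineages did not separate the labels as cleanly. Tbx21, the Th1 factor gene, stood at 10.66 and 10.59 in Tfh against 10.89 and 9.43 in Th1, and Gata3, the Th2 factor gene, at 10.67 and 10.52 in Tfh against 10.44 and 11.13 in Th2. Il12rb2, an IL-12 receptor gene, stood at 8.71 and 9.29 in Th17 against 10.73 and 8.24 in Th1. Arrays were not alike in scale: the 65th percentile of all probe sets was 6.91 and 6.98 in the Tfh arrays, against 5.23 to 5.31 in the cultured arrays. The median tested gene lay 0.83, 0.84 and 0.85 higher in Tfh than in Th17, Th2 and Th1, so differences are also given relative to it. A value was taken to lie at background when it was not above the 95th percentile of 79 probe sets of olfactory, vomeronasal and trace amine receptors in the same array, a level of 2.99 to 3.16. Markers of other cells differed between arrays. All 8 neutrophil markers were above background in both Tfh arrays, where their summed level (log2) was 16.14 and 16.09, against 7.46 and 5.44 in Th17, 11.87 and 5.48 in Th2 and 5.47 and 5.53 in Th1; their part in the Tfh differences below was not tested.

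Ahr, Arnt, Tiparp and Nqo1 lay above background in all 8 arrays, Ahrr did so in the 2 Th17 arrays alone, and Cyp1b1 in 1 Th17 array. Of the 6 genes, 5 passed the filter for testing (above 3.13 in at least 2 arrays), Ahrr through its Th17 arrays only and so through the group in which it was high. Cyp1b1 did not pass and was not tested. A difference was called when limma gave a Benjamini-Hochberg adjusted p under 0.05 over all 11179 tested genes and a log2 difference of at least 1.

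**Figure D1:**
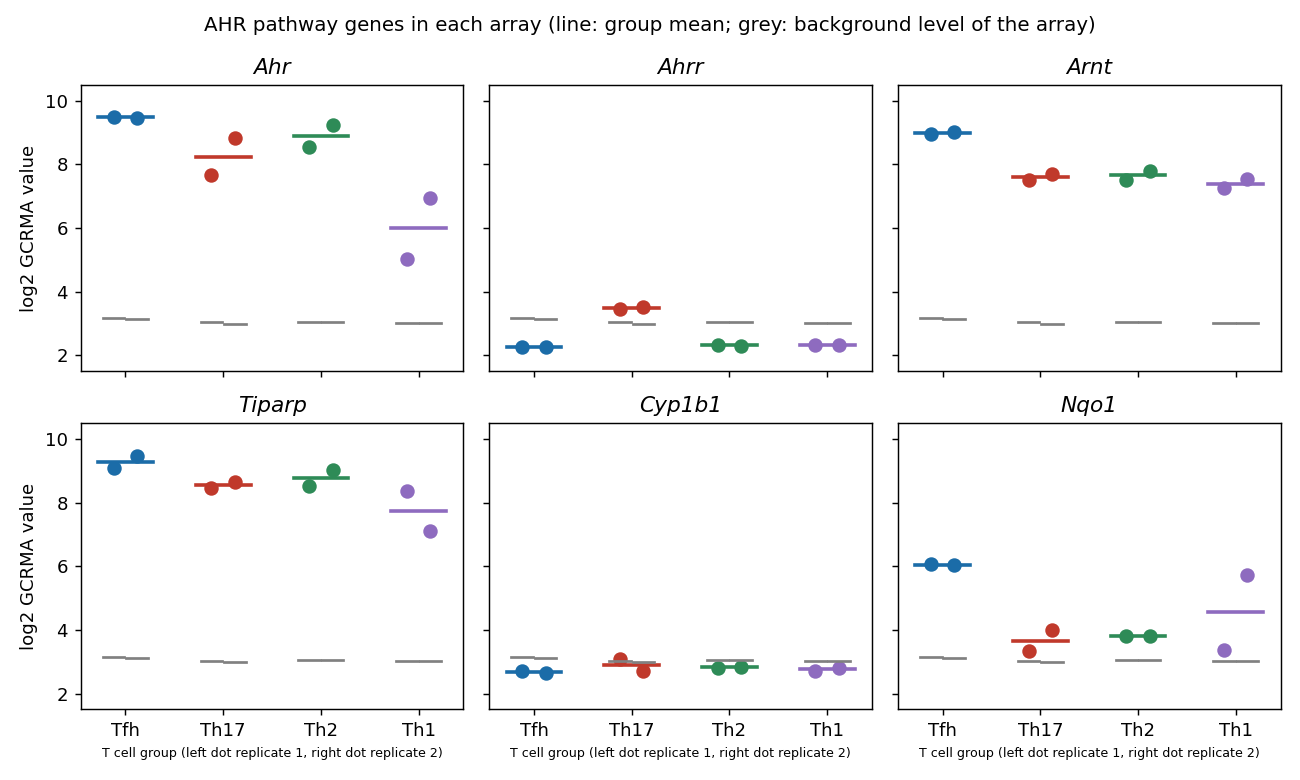
Log2 GCRMA values of the 6 genes by T cell group, with 1 dot per array, a coloured line at the group mean and a grey dash at the background level of each array (2.99 to 3.16). Ahr was lowest in the 2 Th1 arrays, Ahrr was above the grey dashes in the 2 Th17 arrays alone, and Cyp1b1 was above them in 1 Th17 array.

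Ahr, the receptor itself, was high in Tfh, Th2 and Th17 cells and lowest in Th1 cells. It stood at 9.51 and 9.46 in Tfh, 7.67 and 8.82 in Th17, 8.55 and 9.25 in Th2, and 5.03 and 6.94 in Th1. Both Th1 arrays lay below the other 6, the Th17 and Th2 arrays overlapped, and the Tfh arrays lay above all others. By group mean the order was Tfh (9.48 ± 0.03, SD, n = 2), Th2 (8.90 ± 0.49), Th17 (8.24 ± 0.81) and Th1 (5.99 ± 1.35). Ahr was higher in Tfh than in Th1 by 3.50 (SE 0.70, adjusted p = 0.00639). Relative to the median gene that was 2.65. The call held when the arrays were shifted to the same median (2.29, adjusted p = 0.0337) and when they were quantile normalized (2.14, adjusted p = 0.041). With any 1 array left out, which leaves a single array in a group, the difference ran from 2.54 to 4.45.

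None of the neighbours in this order differed by the test. Tfh minus Th2 was 0.58 (95% confidence interval -1.15 to 2.32, adjusted p = 0.492) and turned to -0.63 in both other scalings. Th17 minus Th2 was -0.65 (-2.39 to 1.08, adjusted p = 0.742), and Tfh minus Th17 was 1.24 (-0.50 to 2.97, adjusted p = 0.17). The higher Ahr values of Th17 and Th2 cultures over Th1 cultures did not pass the threshold either, although the arrays did not overlap. Th17 minus Th1 was 2.26 (0.52 to 3.99, adjusted p = 0.377) and Th2 minus Th1 was 2.91 (1.18 to 4.65, adjusted p = 0.135). The Th1 arrays differed from each other by 1.91, a gap matched or exceeded by 3.58% of tested genes between those arrays. Without Th1 replicate 2, which left a single Th1 array, the Th2 minus Th1 difference was 3.87. Against the mean of the 3 cultured types Ahr was higher in Tfh by 1.77 (SE 0.57, adjusted p = 0.0329). It was not called with the arrays at the same median (0.58, adjusted p = 0.41) or quantile normalized (0.51, adjusted p = 0.459). Nor was it called with 1 of several arrays left out: Tfh replicate 1 (adjusted p = 0.142), Tfh replicate 2 (0.134), Th2 replicate 1 (0.069) or Th17 replicate 1 (0.0592). A second Ahr probe set, annotated with the same sequence record, lay at background in every array (2.48 to 2.66).

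The genes whose values ran most like those of Ahr over the 8 arrays were H2-Aa (Pearson's r = 0.97), Swsap1 (0.97) and H2-Eb1 (0.96). H2-Aa and H2-Eb1 encode chains of MHC class II, by which antigen-presenting cells display peptide. H2-Aa stood at 11.55 and 11.42 in Tfh, 9.52 and 9.89 in Th17, 10.07 and 11.21 in Th2, and 3.35 and 8.30 in Th1. In each cultured pair the array with more H2-Aa also had more Ahr, and Th1 replicate 1 was lowest in both. The points share arrays, groups and the higher scale of the Tfh arrays, so r is a description. Of the B cell markers, 4 of 6 on the array were above background in every array but 1, with 5 in Th17 replicate 1, while Pax5 was at background throughout. Their summed level (log2) was 9.91 and 9.93 in Tfh, 8.98 and 7.21 in Th17, 8.08 and 9.73 in Th2, and 5.88 and 7.38 in Th1. Of 10 macrophage and monocyte markers, 7 were above background in both Tfh arrays, 8 and 7 in Th17, 8 and 6 in Th2, and 3 and 6 in Th1, with C1qa and Fcgr1 at background throughout. Their summed level was 11.69 and 11.63 in Tfh, 10.13 and 8.28 in Th17, 11.45 and 8.55 in Th2, and 6.57 and 7.38 in Th1. Of 5 dendritic cell markers, 1 was above background in each Tfh and Th1 array. The count was 3 and 2 in Th17 and 2 in each Th2 array. Their summed level was 5.90 and 5.88 in Tfh and 7.43 and 5.39 in Th17. In Th2 it was 7.16 and 6.50, and in Th1 5.10 and 5.17. Th1 replicate 1 was thus lowest in Ahr, in H2-Aa and in each of these marker lists. In Th17 the array with less Ahr held more of each list, and in Th2 more of the macrophage and dendritic cell lists. By the dendritic cell list the Tfh arrays, highest in Ahr, lay below both Th2 arrays and Th17 replicate 1. The part of these cells in the Ahr values was not tested, and in such mixed samples fewer cells of a type cannot be told from less RNA per cell.

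**Figure D2:**
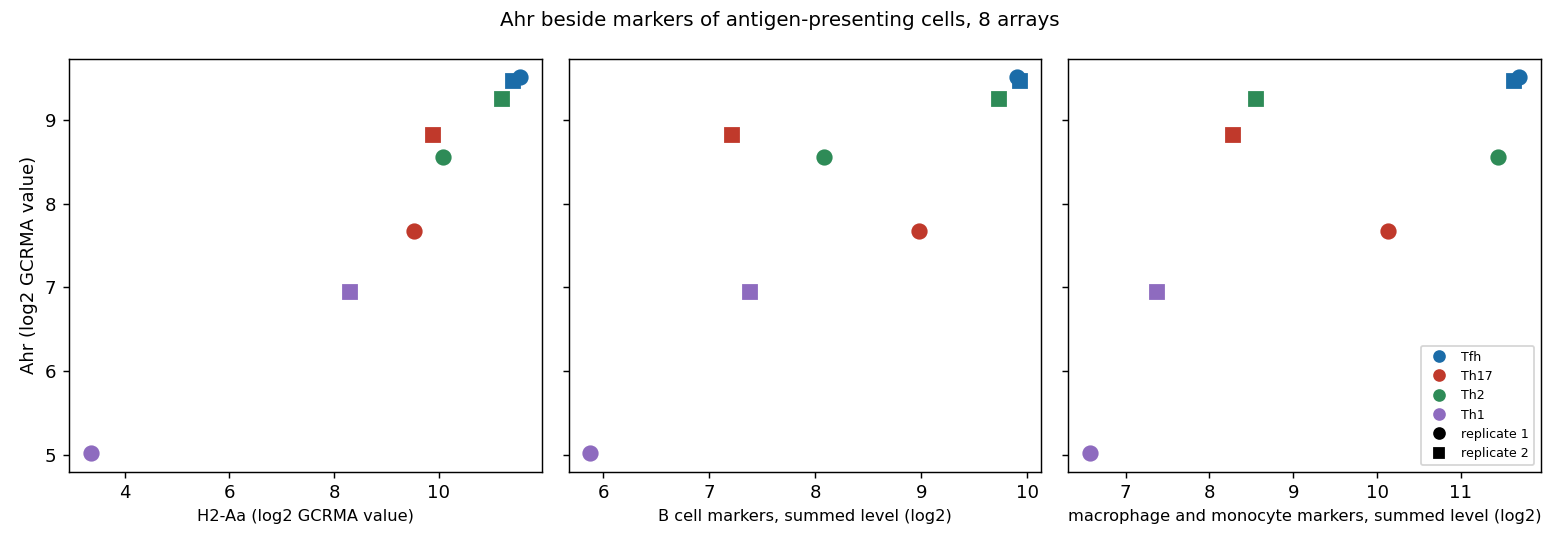
Ahr (vertical axis, log2 GCRMA value) against H2-Aa, the summed level of B cell markers and the summed level of macrophage and monocyte markers (horizontal axes, log2), with 1 point per array. Th1 replicate 1, at an Ahr value of 5.03, is lowest on all 3 horizontal axes. The points run most closely along H2-Aa, which was picked as the tested gene most correlated with Ahr.

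Arnt, the partner that AHR shares with the hypoxia factors, was higher in Tfh than in every cultured type as deposited, and no difference among the cultured types was called. It stood at 8.94 and 9.03 in Tfh, 7.52 and 7.71 in Th17, 7.52 and 7.80 in Th2, and 7.26 and 7.53 in Th1. Both Tfh arrays lay above the other 6, and the cultured groups overlapped each other. Tfh was higher than Th17 by 1.37 (adjusted p = 0.00186), than Th2 by 1.33 (adjusted p = 0.00196) and than Th1 by 1.59 (adjusted p = 0.00101, SE 0.20 in each). Relative to the median gene these differences were 0.55, 0.49 and 0.75. Against the mean of the cultured types the difference was 1.43 (adjusted p = 0.000526), and it was not called with the arrays at the same median (0.24, adjusted p = 0.276) or quantile normalized (0.10, adjusted p = 0.602). Among cultured types the differences were 0.22 for Th17 minus Th1 (95% confidence interval -0.27 to 0.71), -0.05 for Th17 minus Th2 (-0.54 to 0.44) and 0.27 for Th2 minus Th1 (-0.22 to 0.76).

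The other probe sets of Arnt gave larger differences in Tfh. The next brightest stood at 8.19 and 8.14 in Tfh and at 5.02 to 5.96 in the cultured arrays. The third stood at 6.94 and 6.93 in Tfh and at 3.11 to 3.39 in the cultured arrays, just above their background level. With every probe set tested as its own row, Tfh minus the mean of the cultured types was 2.64 (adjusted p = 9.09e-05) for the first and 3.74 (adjusted p = 1.55e-06) for the second. Both stayed called with the arrays at the same median (1.32 and 2.41) and quantile normalized (1.09 and 2.34), where the main probe set was not; these scalings of single probe sets were added after the data were seen. The 2 remaining probe sets lay at background in all arrays but 1, with values of 2.15 to 3.06. Of these, 1 is annotated with the same sequence record as the main probe set. The size of the Tfh difference in Arnt thus depended on the probe set and the scaling, while its direction against the mean of the cultured types was upward in all 3 scalings for these 3 probe sets. The genes most like the main probe set over the 8 arrays were Nckap1l, Snord89 and C2cd5 (r = 1.00 each, rounded).

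**Figure D3:**
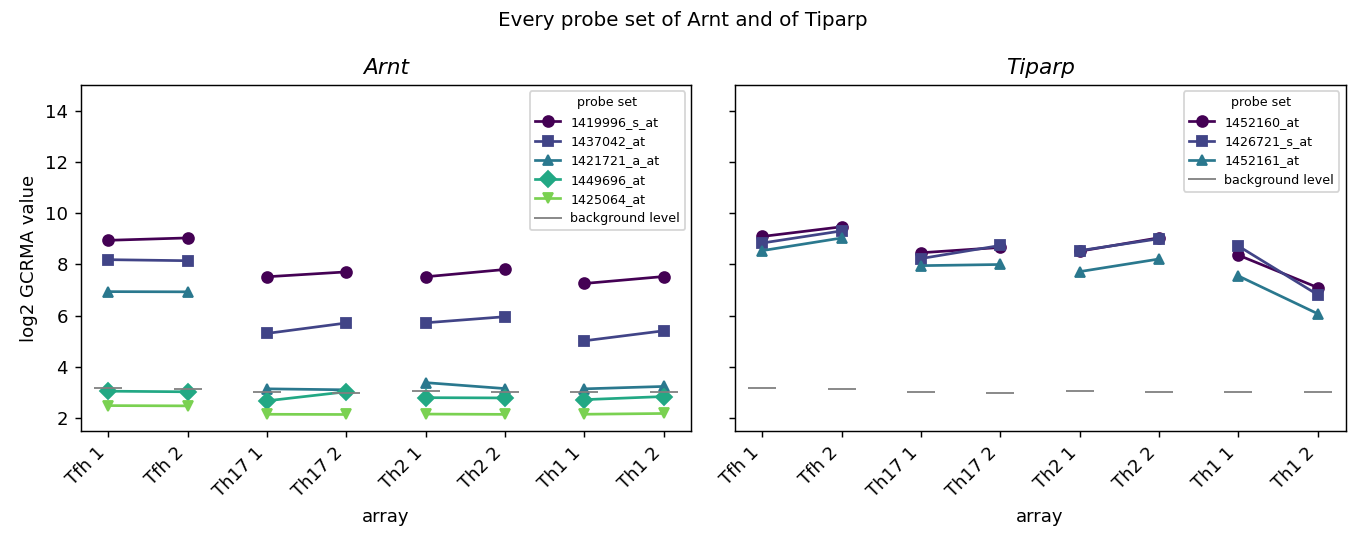
Log2 GCRMA values of every probe set of Arnt (left) and Tiparp (right) in each array, with lines joining the 2 arrays of a group and grey dashes at the background level. For Arnt, 3 probe sets are higher in Tfh than in every cultured array by unequal amounts and 2 lie near background, while the 3 Tiparp probe sets run together and are lowest in Th1 replicate 2.

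Ahrr, the AHR repressor, competes with the receptor for ARNT and is itself a target gene of AHR. It stood at 3.45 and 3.52 in Th17, against 2.26 and 2.25 in Tfh, 2.32 and 2.30 in Th2, and 2.31 and 2.32 in Th1. The Th17 arrays lay above background, by a small margin over levels of 3.04 and 2.99, and the other 6 arrays lay below it. Since the other groups lay at background, only a bound can be given. Th17 was at least 1.39-fold higher than Th1 (limma's adjusted p = 0.00207), at least 1.35-fold higher than Th2 (adjusted p = 0.000315) and at least 1.27-fold higher than Tfh (adjusted p = 8.42e-06). Ahrr entered the test through the Th17 arrays, and the 6 arrays at background span only 2.25 to 2.32, so these p-values are given as a description and not as support. Against Th1 and Th2 the calls held in a fit of the 6 cultured arrays (adjusted p = 0.0277 and 0.00595, an alternative added after the data were seen), but ended with the 4 arrays of the compared groups alone (adjusted p = 0.167 and 0.0538). Between Th2 and Th1, both at background, no difference is given.

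Ahrr was the single member called between cultured types, and since its Th17 values brought it into the test, nothing is read from the counts that follow. In Th17 minus Th1, 1 of the 5 tested members was called higher and 0 lower, where 0.0805% of all tested genes were called higher and 0.0626% lower. In Th17 minus Th2, 1 of 5 was called higher and 0 lower, where the shares of all genes were 0.188% and 0.483%. With the arrays quantile normalized the shares called higher were 0.0537% and 0.215%, and with the arrays at the same median 0.107% and 0.188%. In Th2 minus Th1, limma called 0 of the 5 members, where 0.895% of all genes were called higher and 0.349% lower; Ahr alone of the 5 had an unadjusted p under 0.05. Over the 8 arrays the genes most like Ahrr were Ackr3 (r = 0.99), Stard8 (0.99) and Ppp1r14c (0.98). Ppp1r14c stood at 4.78 and 5.15 in Th17, against 2.06 and 2.04 in Tfh, 2.74 and 2.72 in Th2, and 2.77 and 2.78 in Th1.

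The 250 bases before the start sites of Ahrr, Tiparp and Cyp1b1 are shown, and bases further upstream were not searched. Sequences are RefSeq's for GRCm38.p6, 5′ to 3′ on the strand of the gene. Capitals mark the core of the xenobiotic response element, GCGTG on either strand, and the fuller element TNGCGTG, which contains the core.
Ahrr, chr13:74292332-74292581, minus strand: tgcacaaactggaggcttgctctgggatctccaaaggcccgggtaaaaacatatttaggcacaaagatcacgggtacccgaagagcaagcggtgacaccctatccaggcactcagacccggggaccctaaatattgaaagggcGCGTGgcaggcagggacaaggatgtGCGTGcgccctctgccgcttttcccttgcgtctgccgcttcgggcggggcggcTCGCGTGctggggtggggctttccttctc
Tiparp, chr3:65528197-65528446, plus strand: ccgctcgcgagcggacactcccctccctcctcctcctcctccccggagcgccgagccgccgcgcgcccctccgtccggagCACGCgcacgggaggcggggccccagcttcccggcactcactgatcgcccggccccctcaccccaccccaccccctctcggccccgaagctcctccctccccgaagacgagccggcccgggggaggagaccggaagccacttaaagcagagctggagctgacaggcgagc
Cyp1b1, chr17:79715062-79715311, minus strand: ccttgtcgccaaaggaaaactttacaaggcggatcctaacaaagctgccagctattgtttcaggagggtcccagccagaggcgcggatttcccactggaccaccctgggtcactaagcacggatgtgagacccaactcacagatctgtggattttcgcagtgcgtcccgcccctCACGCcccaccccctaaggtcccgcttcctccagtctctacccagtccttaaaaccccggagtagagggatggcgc
The Ahrr window held 3 cores, the last of them within a full element that begins 29 bases before the start site. Tiparp and Cyp1b1 held 1 core each and no full element, as did Arnt, and the Nqo1 window held neither. Over 32851 such windows, 4.1% held the full element and 28.2% the core. A match is a description of the letters and not a site.

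Tiparp encodes an ADP-ribosyltransferase that modifies AHR and promotes its breakdown, and it is among the most readily induced AHR targets. It was well above background in every group. It stood at 9.09 and 9.47 in Tfh, 8.46 and 8.66 in Th17, 8.52 and 9.04 in Th2, and 8.36 and 7.10 in Th1. Both Tfh arrays lay above the cultured arrays, by as little as 0.05 over Th2 replicate 2, and Th1 replicate 2 was lowest. Tfh minus Th1 was 1.55 (SE 0.44, adjusted p = 0.0231), which left 0.70 over the median gene. The call ended with the arrays at the same median (0.34, adjusted p = 0.525) and quantile normalized (0.25, adjusted p = 0.636). It also ended when 1 of these arrays was left out: Tfh replicate 1 (adjusted p = 0.0653), Tfh replicate 2 (0.117) or Th1 replicate 2 (0.92, adjusted p = 0.0511). The other 2 probe sets gave 1.31 (adjusted p = 0.109) and 1.97 (adjusted p = 0.0144). Against Th17 and Th2 the differences were 0.72 (adjusted p = 0.198) and 0.50 (adjusted p = 0.352), and against the mean of the cultured types 0.92 (adjusted p = 0.0603). Without Th1 replicate 1, which left a single Th1 array, the difference from the mean was 1.13. The differences from Th17, Th2 and the mean turned negative in both other scalings, to between -0.75 and -0.27.

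The 3 probe sets of Tiparp, all annotated with the same sequence record, ran together. In each of them Tfh replicate 2 lay above Tfh replicate 1 and Th1 replicate 2 lay below Th1 replicate 1. The gap between Tfh arrays in the main probe set was 0.38, a size matched or exceeded by 4.55% of tested genes, whose median Tfh gap was 0.08. Among cultured types Th17 minus Th1 was 0.83 (95% confidence interval -0.26 to 1.92, adjusted p = 0.645), Th2 minus Th1 1.05 (-0.04 to 2.14, adjusted p = 0.335) and Th17 minus Th2 -0.22 (-1.31 to 0.87, adjusted p = 0.889). Over the 8 arrays the genes most like Tiparp were Tom1 (r = 0.97), Maco1 (0.96) and Cited2 (0.96).

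Nqo1, an oxidoreductase that detoxifies quinones and is driven both by AHR and by the oxidative stress factor NRF2, was highest in Tfh and in 1 Th1 array. It stood at 6.08 and 6.03 in Tfh, 3.34 and 3.99 in Th17, 3.82 and 3.80 in Th2, and 3.38 and 5.72 in Th1. The low values were close to background: 0.30 above it in Th17 replicate 1, 0.38 in Th1 replicate 1, and 0.77 and 0.76 in Th2. The Tfh arrays lay above the other 6, and Th1 replicate 2 lay nearer to them than to the rest. Nqo1 was higher in Tfh than in Th17 by 2.39 (SE 0.72, adjusted p = 0.0288) and than in Th2 by 2.25 (adjusted p = 0.0348), while the difference from Th1 (means of 6.05 and 4.55) did not pass (adjusted p = 0.113). Relative to the median gene the differences from Th17, Th2 and Th1 were 1.56, 1.41 and 0.66.

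The Nqo1 calls depended on the scaling and on single arrays. With the arrays at the same median the differences from Th17 and Th2 were 1.23 (adjusted p = 0.194) and 1.03 (0.257), and quantile normalized they were 0.87 (0.387) and 0.69 (0.489). The call against Th17 ended when 1 of these was left out: either Tfh array (adjusted p = 0.107 and 0.103 for replicates 1 and 2), either Th17 array (0.12 and 0.0597) or either Th2 array (0.0513 and 0.0509). That against Th2 was lost on leaving out either Tfh array (0.121 and 0.116), either Th17 array (0.0525 and 0.0522) or either Th2 array (0.109 each). Against the mean of the cultured types Nqo1 was higher by 2.05 (adjusted p = 0.0217), which ended without either Tfh array (0.107 and 0.101), at the same median (0.85, adjusted p = 0.244) and quantile normalized (0.49, adjusted p = 0.536). Without Th1 replicate 2, which left a single Th1 array, the difference from Th1 was 2.67. The Th1 arrays differed by 2.33, a gap matched or exceeded by 2.45% of tested genes. Nqo1 differed by -0.89 between Th17 and Th1, -0.74 between Th2 and Th1 and -0.14 between Th17 and Th2, with none called. The genes most like it over the 8 arrays were Vta1, Mrpl14 and Ankle1 (r = 0.99 each).

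Cyp1b1, a cytochrome P450 that oxidizes AHR ligands and steroids, was not detectable in most arrays. Its main probe set stood at 2.70 and 2.65 in Tfh, 3.08 and 2.72 in Th17, 2.82 and 2.82 in Th2, and 2.72 and 2.79 in Th1. Only Th17 replicate 1 passed its background level of 3.04, and by 0.04. The other probe sets lay at background in all arrays, with the highest value, 2.93, in Th2 replicate 1.

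As a set, the 5 tested members were called higher in Tfh about as often as genes at large. Against Th17, 2 of 5 were called higher in Tfh and 1 lower, where 41.7% of all tested genes were called higher and 6.17% lower. Against Th2, 2 of 5 were called higher (42.8% of all genes) and 0 lower (6.89%). Against Th1, 3 of 5 were called higher (42.8%) and 0 lower (6.16%). Against the cultured mean, 3 of 5 were called higher (43.7%) and 0 lower (6.66%). Both other scalings turned the background: the median gene then lay below 0 in Tfh minus the mean, at -0.17 quantile normalized and -0.35 with the arrays at the same median. Quantile normalized, 14% of all genes were called higher and 20.3% lower against Th17, 16.1% and 21.3% against Th2, 15.6% and 21.2% against Th1, and 15.7% and 22% against the mean. At the same median the shares were 13.5% and 26% against Th17, 15% and 29.1% against Th2, 14.4% and 28.5% against Th1, and 14.8% and 28.9% against the mean. Under both scalings Ahr stayed called higher against Th1. Ahrr stayed called lower against Th17, which is a description only, since Ahrr lay at background in Tfh and entered the test through its Th17 arrays. These comparisons share the Tfh arrays.

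**Figure D4:**
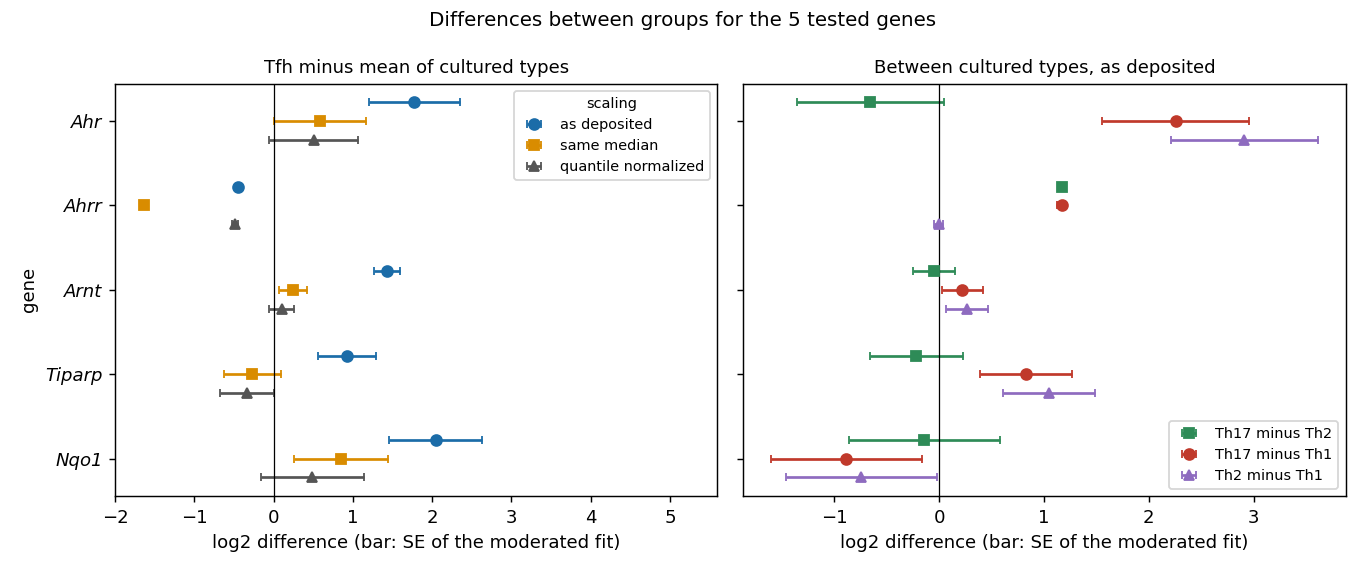
Log2 differences of the 5 tested genes, with bars for the SE of the moderated fit: Tfh minus the mean of the cultured types under 3 scalings of the arrays (left), and the 3 pairs of cultured types as deposited (right). On the left, Ahr, Arnt and Nqo1 lie nearer 0 in the other scalings and Tiparp changes sign. On the right, Nqo1 and Ahr have the widest bars and Arnt lies near 0. The Ahrr points are fitted values against arrays at background and stand for no measured size, since only the bounds of 1.39-fold over Th1 and 1.35-fold over Th2 hold for Th17.

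The AHR-induced P450 genes were low or at background in most arrays, while other listed targets ranged from background in every array to well expressed in every array. Cyp1a1, the classical target, stood at 2.81 and 3.27 in Tfh, 2.20 and 2.84 in Th17, 2.07 and 2.06 in Th2, and 2.07 and 2.08 in Th1, and only Tfh replicate 2 was above background. Cyp1a2, Aldh3a1 and Ereg lay at background in all 8 arrays. Cyp2s1, another P450 of the pathway, stood at 5.64 and 5.78 in Tfh, 4.32 and 2.96 in Th17, 2.39 and 2.40 in Th2, and 2.40 and 2.41 in Th1, and so was above background in both Tfh arrays and 1 Th17 array. Of 5 tested targets, 2 rose in Tfh relative to the mean of the 3 cultures, 1 fell and 2 were neither, where 43.7% of all tested genes were called higher and 6.66% lower. The median difference was -0.30, against 0.84 over all tested genes. Cyp2s1 was at least 5.57-fold higher in Tfh (adjusted p = 0.000547), with each cultured array at background, 5 of 6, set to its background level. Since Cyp2s1 passed the filter for testing only with its Tfh arrays, its call and p-value are a description and not support. Nfe2l2, the gene for NRF2, rose by 1.59 (adjusted p = 0.00373), or 0.75 over the median gene, and lay at 11.04 and 11.14 in Tfh against 8.79 to 9.83 in the cultured arrays. Socs2, a cytokine signal inhibitor, fell by 1.97 (adjusted p = 0.00559), with 8.78 and 8.83 in Tfh against 9.46 to 11.71 in the cultured arrays. The other 2 were not called. Slc7a5, an amino acid transporter gene, stood at 9.33 to 11.81 in all 8 arrays, and Serpinb2, a protease inhibitor gene, at 2.31 and 2.26 in Tfh, 10.80 and 3.68 in Th17, 8.05 and 7.01 in Th2, and 2.23 and 4.23 in Th1. None of the 5 was called between cultured types by limma.

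Among 9 tested T cell genes linked to AHR, 3 rose in Tfh relative to that mean, 0 fell and 6 were neither (median difference -0.08, against 0.84). Of all tested genes 43.7% were called higher and 6.66% lower. Kit, a growth factor receptor gene, was at least 42.7-fold higher in Tfh (adjusted p = 1.38e-05), with the 4 cultured arrays at background set to their background level. Kit passed the filter for testing only with its Tfh arrays, so its call and p-value are a description and not support. Ikzf3, the gene for Aiolos, rose by 2.42 (adjusted p = 0.00191), or 1.58 over the median gene, and Maf, a transcription factor of IL-21 and IL-10 producers, by 1.86 (adjusted p = 0.0482), or 1.03 over it. Neither was called against Th2, at 0.81 for Ikzf3 (limma's adjusted p = 0.169) and 0.28 for Maf (0.785). Against Th17, Ikzf3 was called (3.52, adjusted p = 0.00129) and Maf was not (1.80, 0.104), and against Th1 both were called (2.92 and 3.52). Against single cultured types, Il17a fell in Tfh against Th17 (-3.16, adjusted p = 0.00475) and Il10 against Th2 (-5.24, adjusted p = 0.0448). Gpr15, a homing receptor gene that AHR is known to raise in T cells, stood at 3.52 and 4.36 in Tfh, 3.46 and 4.28 in Th17, 2.34 and 2.33 in Th2, and 3.04 and 2.36 in Th1. It was above background in both arrays of Tfh and Th17 and, narrowly, in Th1 replicate 1, and in Tfh it was at least 1.86-fold higher than in Th2, where both arrays were at background (adjusted p = 0.0143). Between cultured types only Il17a was called in this list, by 4.51 in Th17 over Th2 (adjusted p = 0.0433).

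Of 7 tested genes of the complex and its coregulators, 5 rose in Tfh over the cultured mean, 0 fell and 2 were neither, where 43.7% of all tested genes were called higher (median difference 1.44, against 0.84). Nrip1, a coregulator gene, rose by 2.65 (adjusted p = 0.000201), or 1.81 over the median gene, and Ncoa2, a coactivator gene, by 2.70 (adjusted p = 0.0016), or 1.86 over it. The chaperone gene Hsp90aa1 lay between 14.17 and 14.39 in all 8 arrays. Of 4 tested genes for other ARNT partners, 2 rose, 1 fell and 1 was neither, against the same shares of all genes. The gene that fell, Hif3a, lay at background in both Tfh arrays and passed the filter only with its cultured arrays. Its call is therefore a description. Epas1, which encodes HIF-2 alpha, stood at 8.77 and 8.76 in Tfh, 3.52 and 2.82 in Th17, 11.42 and 13.07 in Th2, and 3.68 and 3.60 in Th1. It was thus highest in Th2, by 8.60 over Th1 (adjusted p = 0.00336). Although counted among the genes that rose over the cultured mean, Epas1 was lower in Tfh than in Th2 (-3.48, limma's adjusted p = 0.00251). Th17 minus Th2 was -9.07 (adjusted p = 0.00261), a fitted value and not a measured size, since Th17 replicate 2 was at background. Npas4, the gene for an activity-induced factor, was above background in both Tfh arrays (6.77 and 6.58) and in Th17 replicate 2 (3.72) alone. As it passed the filter for testing only with its Tfh arrays, its place among the genes that rose is a description.

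Genes of the NRF2 programme, to which Nqo1 also belongs, were called higher in Tfh over the cultured mean for 7 of 14 tested, with 0 lower and 7 neither, where 43.7% of all tested genes were called higher and 6.66% lower (median difference 1.00, against 0.84). Gclc and Gclm, the subunits of the enzyme that starts glutathione synthesis, rose by 2.77 (adjusted p = 5.01e-05) and 2.43 (adjusted p = 0.00028), and Mafg, a small Maf partner of NRF2, by 1.91 (adjusted p = 0.000417). Over the median gene these were 1.93, 1.59 and 1.07. None of the 14 was called between cultured types by limma. Of 10 genes for enzymes of tryptophan metabolism, 4 were tested, and Ido2, Tdo2, Il4i1, Kynu, Haao and Aadat lay at background throughout. Ido1, which opens the kynurenine pathway, stood at 2.67 and 2.72 in Tfh, 7.85 and 4.96 in Th17, 6.35 and 5.90 in Th2, and 3.12 and 2.69 in Th1. It was at background in both Tfh arrays, and so at least 9.59-fold lower in Tfh than in Th17 (adjusted p = 0.0118) and at least 7.90-fold lower than in Th2 (adjusted p = 0.0154). As Ido1 passed the filter for testing only with its Th17 and Th2 arrays, these calls and p-values are a description and not support. Afmid, which makes kynurenine from the product of IDO, was at least 12.6-fold higher in Tfh than the cultured mean (adjusted p = 6.62e-05), with 2 cultured arrays at background, and no gene of the list was called between cultured types by limma.

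**Figure D5:**
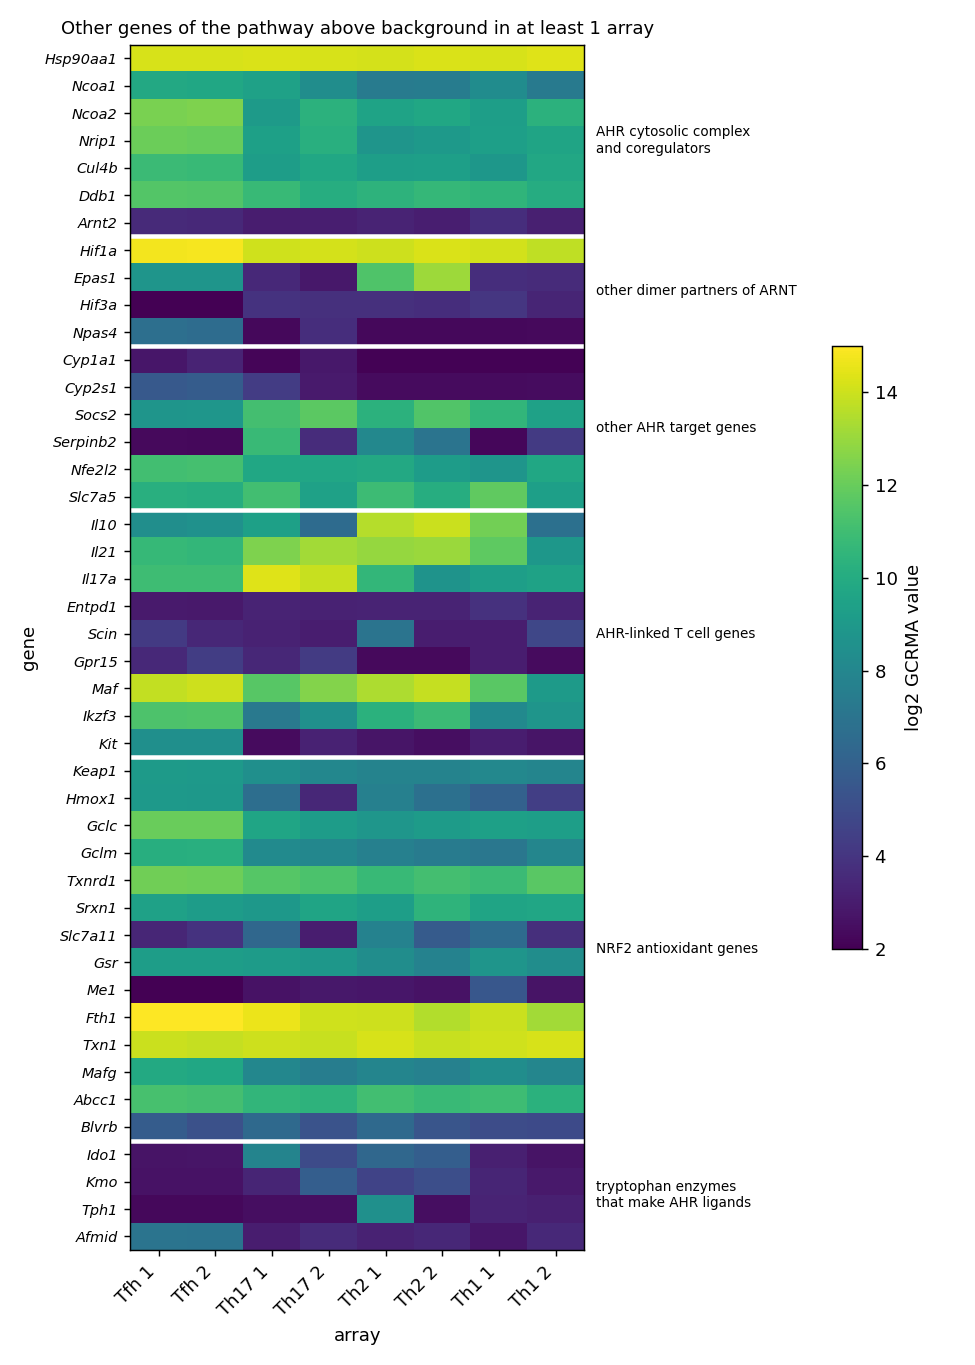
Log2 GCRMA values of 44 other genes of the pathway in the 8 arrays, grouped by list with white lines between lists, for genes above background in at least 1 array; Nfe2l2, which is in 2 lists, is drawn once. Gclc, Gclm and Afmid are brighter in the 2 Tfh columns, Epas1 is brightest in Th2, and Ido1 is dark in Tfh and bright in Th17 replicate 1.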

How the data were processed

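The 8 arrays hold 1 log2 value per probe set (45101), deposited by the authors and made with GCRMA per the submitters' processing notes. Its version, and which arrays were normalized together, are not given in the sources used here. Array medians ran from 3.04 to 3.46 and genes were not centred. Genes came from GEO's platform annotation, with symbols updated by gene ID through RefSeq for GRCm38.p6 (34754 of 34958 matched); 932 probe sets had several symbols and 9211 none. The deposited values were not rescaled; limma 3.58.1 (R 4.3.3) fitted a mean for every group to the 8 arrays together, using eBayes with a trend (4 residual and 1.78 prior degrees of freedom). Tests were two-sided. Genes were kept when above the 50th percentile of all values in at least 2 arrays. The number of arrays limits the precision. Members, lists and comparisons were chosen with earlier results of these data known. Named genes were the members, per list up to 3 called genes each way by adjusted p, the label check genes, and the 3 tested genes most correlated with each tested member, without Rik, Gm and LOC symbols. Cyp1a1, Hsp90aa1, Slc7a5, Serpinb2, Il12rb2 and the list genes named as at background were chosen after their values were seen. Of 127 list entries 112 were on the array; the rest, among them Il22, were not analysed here. The procedure was tested on simulated data. Plots used matplotlib 3.10.9. A bound (at least N-fold) sets each array at background to its background level.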

Additional observations from a re-analysis of the deposited data

How the results depend on the processing

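The number of arrays and the scale of the Tfh arrays set the limits. The 5 tested members gave 3, 2, 3 and 3 calls for Tfh against Th17, Th2, Th1 and the mean of the cultured types, 1 each for Th17 against Th1 and Th2, and 0 for Th2 against Th1. The shares of all tested genes called are given with the results above, and nothing about the members is read from these counts. After quantile normalization the Tfh comparisons gave 1, 0, 1 and 0 calls. After the median shift they gave 1 against Th17, 1 against Th2 and 1 against the mean. Each of these was Ahrr, called lower in Tfh, where it lay at background. Against Th1, Ahr was then called higher and Ahrr lower. Fits with the Tfh arrays averaged as 1, or with 1 array left out, leave a single array in a group, so their counts of calls are not given. Without each array in turn, Tfh minus the mean of the cultured types ran from 1.45 to 2.09 for Ahr and from 1.38 to 1.48 for Arnt. It ran from 0.71 to 1.13 for Tiparp and from 1.66 to 2.43 for Nqo1. The calls of Ahrr in Th17 gave way to 0 with only the arrays of the groups compared, and under the 65th percentile filter, which leaves Ahrr out. With the 50th percentile of all values as the background level, 1 member, Cyp1b1, lay at background in both Th17 arrays, against 0.

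Under quantile normalization the sign turned, without a call, for Nqo1 in Tfh minus Th1 (-0.10), for Ahr (-0.63), Arnt (-0.0086) and Tiparp (-0.75) in Tfh minus Th2, for Tiparp in Tfh minus Th17 (-0.51) and against the mean (-0.34), and for Ahrr in Th2 minus Th1 (0.0052). After the median shift it turned for Ahr (-0.63) and Tiparp (-0.71) in Tfh minus Th2, Tiparp in Tfh minus Th17 (-0.44) and against the mean (-0.27), and Ahrr in Th2 minus Th1 (0.0016). Leaving out 1 array, differences ran from -2.05 to 0.28 for Nqo1 in Th17 minus Th1, -1.91 to 0.42 in Th2 minus Th1 and -0.47 to 0.18 in Th17 minus Th2. They ran from -0.19 to 0.095 for Arnt and -0.48 to 0.044 for Tiparp in Th17 minus Th2, and from -0.014 to 0.0060 for Ahrr in Th2 minus Th1. Ahrr, at background in Tfh, Th2 and Th1, was called lower in Tfh than in Th1 (-1.27) and Th2 (-1.27) after the median shift. The cause of these changes was not tested.

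The replicate numbers of the titles pair the arrays only weakly. Same-numbered deviations correlated at 0.25 for Th1 with Th17 and 0.27 for Th2 with Th17, and between -0.00181 and 0.0424 for the other 4 pairs of groups. With the number as a block no call of a member changed, and the adjusted p for Ahrr in Th17 minus Th1 was 0.0147. Calls over all genes then numbered 3 higher and 2 lower for Th17 minus Th1, against 9 and 7 without the block. The fit on the arrays of the groups compared was not run for the mean of the cultured types, which uses all arrays.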
